A study of Mus musculus with 4 samples.

Results

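Serine, glycine, threonine and folate metabolism was followed through 10 genes taken by symbol: the serine synthesis enzymes Phgdh, Psat1 and Psph, the folate enzymes Shmt1, Shmt2, Mthfd1, Mthfd1l and Mthfd2, the glycine decarboxylase Gldc and the threonine dehydrogenase Tdh. All 10 were found among the 37311 gene identifiers counted, and all 10 passed the filter on low counts, which left 13809 genes to test. The cells came from mESC J1, a mouse embryonic stem cell line (strain 129S4/SvJae) kept without feeder cells in serum with leukaemia inhibitory factor. They carried short hairpins against eIF4A3, a helicase that marks spliced exon junctions, under puromycin for 3 days, and were lysed on day 4.5 after infection, following 1 min of cycloheximide at 0.1 mg/mL.

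The groups were ribosome protected fragments (RPF, 2 libraries) and total RNA (2 libraries), all 4 from eIF4A3 knockdown cells. Both fractions therefore came from knockdown cells under the same selection and drug. The comparison is of ribosome footprints with RNA, not of knockdown with control cells, which were not analysed here. Which of the 2 hairpins each library received is not given in the sources used here, so whether the fractions shared them is not known. Replicates are called biological in the labels.

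Reads assigned to genes numbered 9434987 in RPF replicate 1 and 7615277 in RPF replicate 2, against 8969965 and 8218020 in the total RNA libraries. Eif4a3, the targeted gene, had 1640 and 1325 counts in the RPF libraries and 1229 and 975 counts in the total RNA libraries; with no library of cells lacking the hairpins, these levels do not check the knockdown. Stem cell identity was checked with 8 pluripotency genes, all of which had at least 10 CPM (counts scaled to the effective library size) in total RNA, with a summed level of 5896 and 5558 CPM in RPF and of 4203 and 3813 CPM in total RNA. The 8 fibroblast genes summed to 12.9 and 11.5 CPM in RPF and to 5.68 and 5.16 CPM in total RNA, with Dcn at 0 counts in all 4 libraries. Trophectoderm genes summed to 14.5 and 16.3 CPM in RPF, against 10.5 and 11.1 CPM in total RNA, and primitive endoderm genes to 73.4 and 53.8 CPM, against 54.2 and 37.3 CPM. Mesoderm and neuroectoderm genes, of which 7 of 8 were found, summed to 211 and 182 CPM in RPF and to 102 and 85.4 CPM in total RNA, where the tubulin Tubb3 alone had 69.1 CPM.

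Serine is made from a glycolytic intermediate in a short cytosolic pathway, and its conversion to glycine loads a one-carbon unit onto folate. Folate carries these units in parallel cytosolic and mitochondrial routes, which feed purine and thymidylate synthesis and the methionine cycle. Mouse embryonic stem cells are known to break down threonine through the mitochondrial enzyme TDH, which yields glycine and acetyl-CoA, and to depend on it. A ribosome footprint mostly marks coding sequence under translation. The number of footprints relative to RNA reads therefore describes how heavily a message was occupied relative to other messages.

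The coding sequence begins at the start codon. The windows around it are shown for the 10 messages, read from a single coding transcript per gene of GENCODE M21 (GRCm38). Each runs 5′ to 3′ from 6 bases before the start codon, in capitals, to 3 bases after it.
Phgdh: ctagcaATGgcc
Psat1: agcaccATGgaa
Psph: cccaggATGgtc
Shmt1: agtgcaATGgca
Shmt2: gtagcgATGgta
Mthfd1: aaggccATGgca
Mthfd1l: agcagcATGagc
Mthfd2: cgagccATGgct
Gldc: gcgtccATGcag
Tdh: gaacagATGcta
A purine stands 3 bases before the start codon in 8 of 10, against 86.6% of 12430 tested coding genes. Both that purine and a G directly after the start codon, the classical favourable context, are found in 7 of 10, against 46.1% of those genes. Gldc and Tdh have neither, as do 6.12% of coding genes. The genes lie on chromosomes 3 (Phgdh), 19 (Psat1 and Gldc), 5 (Psph), 11 (Shmt1), 10 (Shmt2 and Mthfd1l), 12 (Mthfd1), 6 (Mthfd2) and 14 (Tdh).

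Most of the 10 messages carried more footprints per RNA read than the typical gene. The RPF level over the total RNA level on the log2 scale, called the ratio here, was higher than 0 at an adjusted p under 0.05 in 7 of the 10 genes, where 20.5% of all tested genes were called higher. None of the 10 was called lower by edgeR's quasi-likelihood test, by DESeq2 or by limma-voom, nor at an unadjusted p under 0.05 (0 genes each). Of all 13809 tested genes edgeR called 2930 (21.2%) lower, DESeq2 2321 and limma-voom 2917. At an unadjusted edgeR p under 0.05, 3614 were lower. The median ratio was 0.86 over the 10 genes and -0.02 over all tested genes. The 10 were chosen with earlier results of these data known, so these shares only describe them. In the 7 called genes both RPF libraries lay above both total RNA libraries, as they did in 34.9% of all tested genes; in 0 of the 10 did both lie below, against 37.9% of all tested genes. In such bulk lysates the number of cells and the RNA per cell cannot be told apart, and the ratio measures neither. Without total RNA replicate 2, 3 of the 10 were called higher. With library size as the only scaling 4 were, and over all genes 1223 were then higher and 4961 lower, where TMM scaling gave 2835 and 2930; the median of the 10 became 0.42 and that of all genes -0.46. Together the 10 genes held 2660 and 2088 CPM in RPF, against 1328 and 1116 CPM in total RNA.

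**Figure D1:**
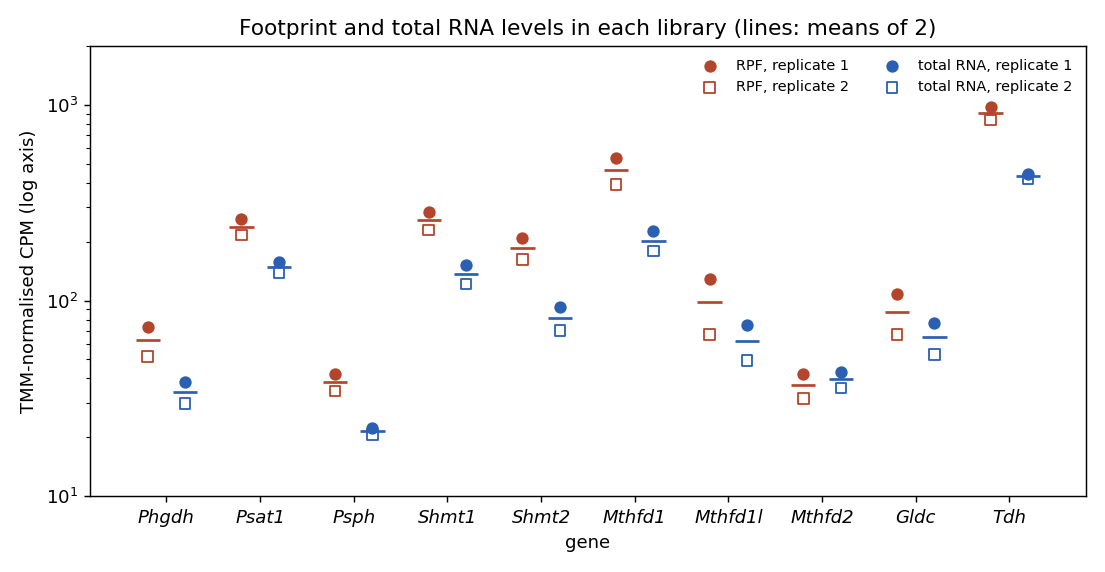
TMM-normalised CPM (log axis) of the 10 genes in each RPF and total RNA library, with lines at the means of 2 libraries. Both RPF libraries lie above both total RNA libraries for 7 genes, and the fractions overlap for Mthfd1l, Mthfd2 and Gldc.

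Serine synthesis was higher in footprints at all 3 steps, by 1.61 to 1.84 times. Phgdh, the dehydrogenase that opens the pathway, had 73.2 and 51.9 CPM in RPF and 38.3 and 29.8 CPM in total RNA. The fractions did not overlap, and its ratio was 0.88 ± 0.21 (SE; edgeR adjusted p = 0.016). Psat1, the aminotransferase of the middle step, had 260 and 216 CPM in RPF, against 157 and 139 CPM in total RNA. The fractions were again separate, with the smallest ratio of the 3, 0.68 ± 0.16 (edgeR adjusted p = 0.0135). Psph, the phosphatase that releases serine, had 42.3 and 34.4 CPM in RPF and 22.2 and 20.6 CPM in total RNA. Here too the fractions did not overlap (0.84 ± 0.18, edgeR adjusted p = 0.0101).

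None of these 3 calls was kept without total RNA replicate 2 (edgeR adjusted p = 0.0589 for Phgdh, 0.127 for Psat1 and 0.054 for Psph); over all 15 alternatives their adjusted p ran up to 0.13, 0.291 and 0.121. Of the 28-base stretches of Phgdh, 57.8% also occur in another gene, 46.1% in the annotated gene Gm7901, so its counts are uncertain; Psph shares 10.3%, mostly with Cct6a, whose exons overlap it on the opposite strand.

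In the folate cycle both cytosolic enzymes and 1 of the 3 mitochondrial ones were higher in footprints. Shmt1, the cytosolic serine hydroxymethyltransferase, which makes glycine and loads folate, had 284 and 229 CPM in RPF and 153 and 121 CPM in total RNA. Shmt2, its mitochondrial counterpart, had 209 and 162 CPM in RPF, against 93.1 and 70.3 CPM in total RNA. For both enzymes the lower RPF library stood above the higher total RNA library, with ratios of 0.91 ± 0.18 for Shmt1 (edgeR adjusted p = 0.00768) and 1.18 ± 0.20 for Shmt2 (edgeR adjusted p = 0.00403). Mthfd1, the cytosolic enzyme with 3 folate activities in one chain, had 537 and 391 CPM in RPF and 226 and 179 CPM in total RNA. Its ratio, 1.2 ± 0.21 (edgeR adjusted p = 0.00486), was the highest of the 10 and above that of 92.9% of all tested genes.

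The mitochondrial folate enzymes downstream of Shmt2 were not called. Mthfd2, the mitochondrial dehydrogenase and cyclohydrolase, had 42.3 and 31.6 CPM in RPF, against 43.4 and 35.8 CPM in total RNA. Its libraries overlapped between fractions and its ratio was -0.10 ± 0.20 (edgeR adjusted p = 0.719, 95% confidence interval -0.56 to 0.37), the one value of the 10 under the median of all genes. Mthfd1l, the mitochondrial formate-releasing synthetase, had 128 and 67.2 CPM in RPF and 75.3 and 49.3 CPM in total RNA. Replicate 1 was the higher library in each fraction, and RPF replicate 2 fell below total RNA replicate 1, leaving a ratio of 0.65 ± 0.32 (edgeR adjusted p = 0.144, 95% confidence interval -0.11 to 1.41).

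Exons of Smcr8 overlap those of Shmt1 on the opposite strand, as those of Ndufa4l2 do for Shmt2, those of Gm47525 for Mthfd1 and those of Gm17232 for Tdh, and the strand setting of the counting is not known here. The Shmt1 call was lost without total RNA replicate 2 (edgeR adjusted p = 0.0573; up to 0.0788 over all 15 alternatives), while those of Shmt2 and Mthfd1 were made under all 15. Mthfd1l passed without RPF replicate 2 (1.06, edgeR adjusted p = 1.49e-06) and without total RNA replicate 1 (0.98, adjusted p = 0.0209), in a range up to 0.669.

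**Figure D2:**
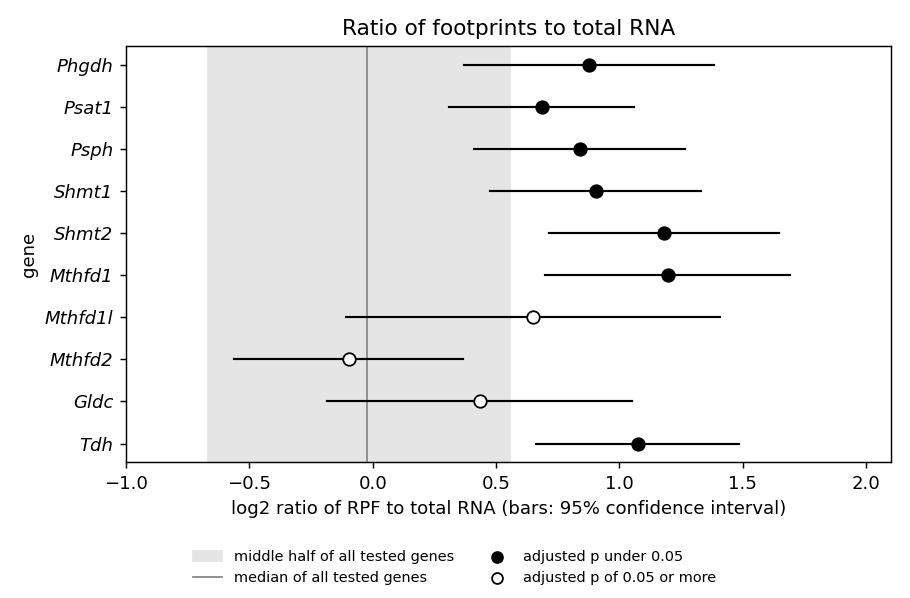
The ratio of RPF to total RNA (log2) with its 95% confidence interval for each of the 10 genes, filled where the adjusted p was under 0.05; grey shows the quartile range and median of all tested genes. Mthfd2 lies beside the median of all genes and Mthfd1, Shmt2 and Tdh lie farthest above it.

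Tdh, which had the highest level per length of the 10 messages in both fractions, also had a higher ratio. It had 976 and 838 CPM in RPF and 444 and 418 CPM in total RNA, so that both RPF libraries lay far above the total RNA libraries. The ratio of 1.07 ± 0.17 (edgeR adjusted p = 0.00366) was called under all 15 alternatives. Gldc, the decarboxylase of the glycine cleavage system, which breaks glycine down in mitochondria, had 108 and 67.2 CPM in RPF, against 76.7 and 53 CPM in total RNA. RPF replicate 2 fell below total RNA replicate 1, and the ratio did not pass (0.43 ± 0.26, edgeR adjusted p = 0.221, 95% confidence interval -0.18 to 1.05). Without RPF replicate 2 it passed (0.75, edgeR adjusted p = 0.000641; up to 0.982 over the alternatives). Of the 28-base stretches of Tdh, 18.9% occur in another gene, nearly all in Gm13929.

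All 10 genes were higher in replicate 1 than in replicate 2 in both fractions, which was so for 33.5% of all tested genes. Within RPF, replicate 1 over replicate 2 ran from 1.17 times for Tdh to 1.91 times for Mthfd1l. The same quotient in total RNA ran from 1.06 times for Tdh to 1.53 times for Mthfd1l. Mthfd1l and Gldc, which did not pass, had the widest spread between replicates in both fractions, with Gldc at 1.61 times in RPF and 1.45 times in total RNA. Mthfd2 did not: its replicates stood 1.34 times apart in RPF and 1.21 times in total RNA, within the range of the called genes.

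Quotients of the counts of 2 genes inside a library do not depend on how libraries are scaled. Mthfd2 had 0.0787 and 0.0809 times the counts of Mthfd1 in RPF, against 0.192 and 0.2 times in total RNA. The fractions did not overlap: Mthfd2 held a smaller part of the footprints, relative to Mthfd1, than of the RNA. Its ratio minus that of Mthfd1 was -1.29 ± 0.29 (SE from both fitted errors, taken as independent). Mthfd1l had 0.239 and 0.172 times the counts of Mthfd1 in RPF and 0.333 and 0.275 times in total RNA, again without overlap, at a difference in ratio of -0.54 ± 0.38. For the hydroxymethyltransferases the quotient was higher in RPF, again without overlap, at a difference near its SE. Shmt2 had 0.736 and 0.707 times the counts of Shmt1 in RPF, against 0.61 and 0.579 times in total RNA, at a difference in ratio of 0.28 ± 0.27. Tdh had 9.04 and 12.5 times the counts of Gldc in RPF and 5.79 and 7.87 times in total RNA, without overlap and at a difference in ratio of 0.64 ± 0.32. Inside serine synthesis the fractions overlapped. Psat1 had 3.55 and 4.15 times the counts of Phgdh in RPF, against 4.09 and 4.66 times in total RNA (difference in ratio -0.19 ± 0.27), and Psph had 0.578 and 0.663 times those counts in RPF, against 0.581 and 0.692 times in total RNA (-0.04 ± 0.28). None of these 6 differences between genes was tested. Separate fractions were common among single genes. Both RPF libraries lay above both total RNA libraries in 34.9% of all tested genes and below them in 37.9%. The share over pairs of genes was not computed.

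Levels were ranked among genes per kb, over the coding sequence for RPF and the whole transcript for total RNA. Tdh led on both scales, with 808 ± 87.2 CPM per coding kb in RPF and 229 ± 9.94 CPM per kb in total RNA (SD, n = 2), above 98.5% and 98.7% of tested coding genes. Psat1, Shmt1, Mthfd1 and Shmt2 formed the next step, between 122 and 214 CPM per coding kb in RPF and between 35.7 and 62.5 CPM per kb in total RNA. In RPF their order was Psat1, Shmt1, Mthfd1 and Shmt2, and in total RNA Mthfd1, Psat1, Shmt1 and Shmt2. Over the length of all annotated exons Psat1 stood at 34.8 and Shmt1 at 35.3 CPM per kb in total RNA, which turns their order round. Neighbours among the first 3 overlapped in both orders, while Shmt2 lay below all libraries of the other 3. Psph, Phgdh, Mthfd2, Mthfd1l and Gldc were lowest, at 28.5 to 56.6 CPM per coding kb in RPF and 12.4 to 19 CPM per kb in total RNA. Psph was first of these 5 in RPF, with 62.4 and 50.7 CPM per coding kb. It was last in total RNA, with 12.8 and 11.9 CPM per kb. All RPF counts of a gene were divided by its coding length. Counts per gene do not separate footprints in the leader of Psph (822 bases) from those in its coding sequence (678 bases). The other 4 overlapped on both scales.

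**Figure D3:**
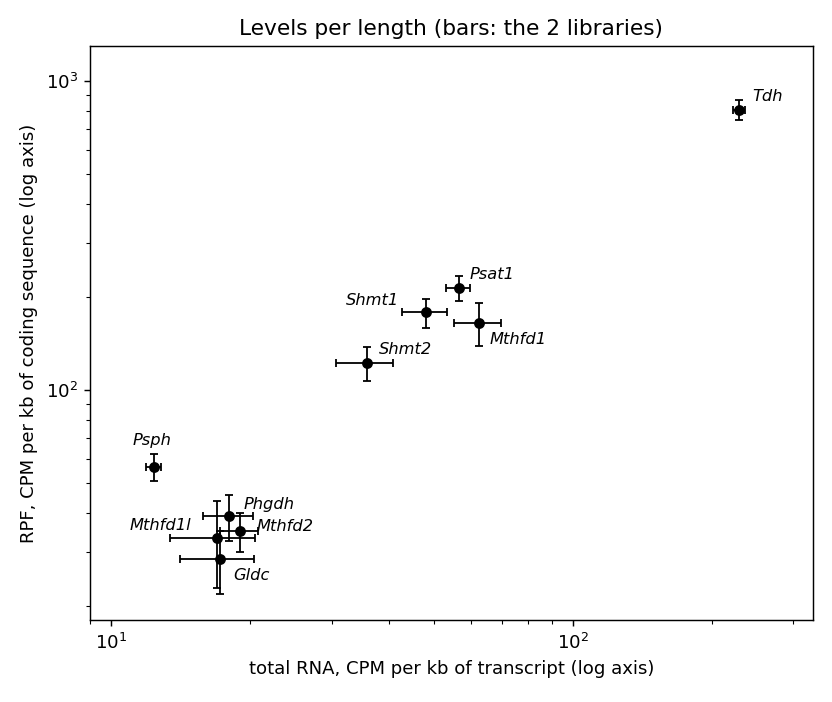
Mean RPF level per kb of coding sequence against mean total RNA level per kb of transcript (log axes) for the 10 genes, with bars that span the 2 libraries. Tdh stands apart at 808 and 229 CPM per kb, and Psph lies above the 4 genes next to it in RPF.

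Footprints fall mainly on coding sequence while total RNA reads also fall on untranslated regions. The ratio therefore depends on the coding share of a message. Over 12655 tested coding genes, in steps of 10 percentage points, the median ratio was lowest, at -0.41, where 0 to 10% of the annotated exon length was coding and highest, at 0.32, where 80 to 90% was; it was 0.10 in the 113 genes at 90 to 100%. In the steps that hold the 10 genes it ran from -0.27 (10 to 20%) to 0.25 (60 to 70%). Over all annotated exons the 10 genes had coding shares from 15.6% (Psph) to 66.5% (Phgdh), around the median of 35.8%. In the transcripts used for lengths the coding part was larger. It was 678 of 1733 bases in Psph, 1113 of 2617 in Psat1 and 1602 of 1893 in Phgdh. The corrections that follow used all annotated exons and were not repeated on those transcripts. After a loess correction for coding share the ratio of Psph was 1.15 ± 0.18 and that of Psat1, at a coding share of 27.3%, 0.82 ± 0.16. For Phgdh it was 0.65 ± 0.21 (edgeR adjusted p = 0.0455), and with exon length in the correction as well its call was lost (0.50 ± 0.21, adjusted p = 0.103). The other 6 calls held under both corrections.

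**Figure D4:**
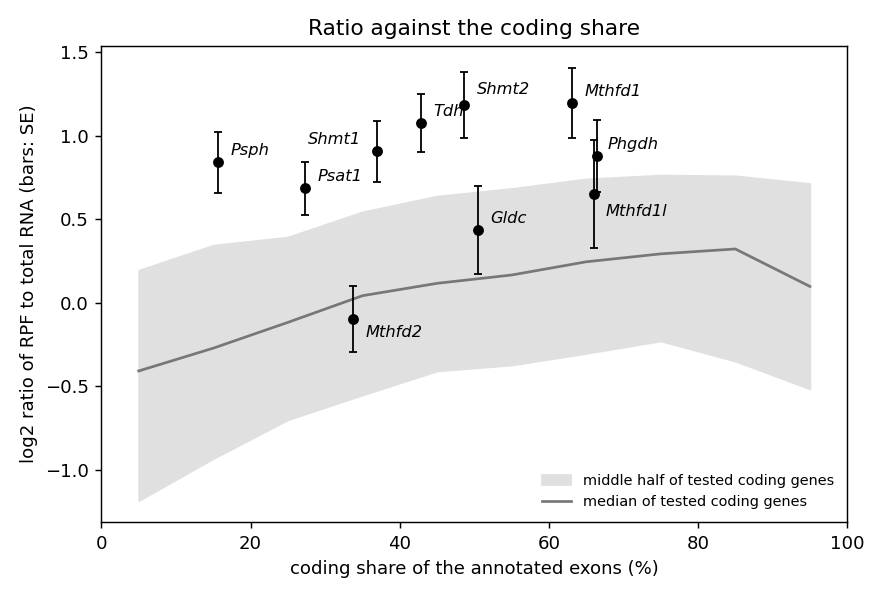
The ratio of RPF to total RNA (log2, bars are SE) against the coding share of the annotated exons in percent for the 10 genes; the line and the band are the median and the quartile range of tested coding genes in steps of 10 percentage points. Of the 10 points, 7 lie above the band, Mthfd1l and Gldc lie inside it above the line, and Mthfd2 lies under the line.

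The untranslated leaders differed among the 10 messages. An upstream ATG stands in 3 of them, against 51.3% of 12620 tested coding genes. Psph has a leader of 822 bases with 4 upstream ATGs, each followed in frame by a stop before the main start, where 10.3% of coding genes have 4 or more such frames and the median leader is 180 bases. Tdh has 1 such frame in a leader of 399 bases, and the single upstream ATG of Psat1 has no stop in frame before the main start. Psat1, Psph and Tdh were all called higher, as were Phgdh, Shmt1, Shmt2 and Mthfd1, whose leaders hold no upstream ATG. Mthfd1l, Mthfd2 and Gldc, which were not called, hold none either. Counts per gene do not separate footprints on upstream frames from those on the main coding sequence. Mthfd2 has the shortest leader, 77 bases with 77.9% G and C, against a median of 64.8% over coding genes. In the annotated transcripts, Shmt2 alone begins with a C followed by at least 4 pyrimidines, the form of a terminal oligopyrimidine tract. So do 2.23% of coding genes. Where the messages start in these cells was not measured. Exon junctions, where eIF4A3 is deposited, number 27 in Mthfd1 and Mthfd1l, 24 in Gldc and 7 to 11 in the other 7 transcripts, against a median of 8; genes called higher and genes not called are found at both ends of that range.

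The wider pathway was read from 46 other genes in 4 lists, of which 39 passed the count filter. Of these, 14 were called higher and 3 lower, and 22 did not pass, with a median ratio of 0.23. That is 35.9% higher and 7.69% lower, beside 20.5% and 21.2% of all tested genes. These lists, too, were chosen with earlier results of these data known. Without total RNA replicate 2, 7 were called higher and 1 lower.

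Around Gldc and Tdh, 3 of 5 tested genes (60%) were called higher and 1 (20%) lower. Over all tested genes these shares were 20.5% and 21.2%. The median ratio of the 5 was 0.53. Amt, the aminomethyltransferase of the glycine cleavage system, had 94.6 ± 11.2 CPM in RPF and 52.8 ± 2.96 CPM in total RNA (SD, n = 2; ratio 0.84 ± 0.15, edgeR adjusted p = 0.00473). Dld, the lipoamide dehydrogenase shared with other complexes, stood at 0.53 ± 0.17 (edgeR adjusted p = 0.0394), a call lost under 9 of 15 alternatives. Among them were the corrections for coding share alone (edgeR adjusted p = 0.069) and with exon length (0.0728), and library size only (0.664). Without RPF replicate 1 the ratio of Dld was 0.38. Without total RNA replicate 1 it was 0.65, and without total RNA replicate 2 it was 0.40. Gcsh, the lipoyl carrier of the same system, had a ratio of 0.15 ± 0.14 and did not pass. Gcat, which acts directly after TDH to release glycine, stood at 0.81 ± 0.19 (edgeR adjusted p = 0.0136), but 46.9% of its 28-base stretches occur in a second annotated gene of that name. Its call was lost without total RNA replicate 2 (edgeR adjusted p = 0.0845) and after the correction for coding share and exon length (0.108), in a range up to 0.158. Srr, serine racemase, was the lower one, at 12 and 14 counts in RPF against 51 and 49 in total RNA (edgeR adjusted p = 0.018). DESeq2 called 0 genes of this list lower. Of the 28-base stretches of Srr, 28.8% occur in other genes, mostly in Tsr1, whose exons overlap it on the opposite strand. Srr is under 10 CPM and was named after its values were seen.

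Among 14 tested folate enzymes 5 (35.7%) were called higher and 2 (14.3%) lower, beside 20.5% and 21.2% of all tested genes. The median ratio of the 14 was 0.22. Atic and Gart, which use formyl folate in purine synthesis, had 420 ± 107 and 665 ± 156 CPM in RPF, against 189 ± 39.4 and 338 ± 63.3 CPM in total RNA (SD, n = 2). Their ratios were 1.15 ± 0.23 and 0.97 ± 0.23 (edgeR adjusted p = 0.00768 and 0.0133). Fpgs, which adds the glutamate tail that keeps folate in the cell, stood at 0.92 ± 0.13, and methionine synthase, Mtr, at 0.54 ± 0.13 (edgeR adjusted p = 0.00233 and 0.0143). Mthfs, called lower, had 1 and 3 counts in RPF against 12 and 12 in total RNA (edgeR adjusted p = 0.0498) and was named after its values were seen. DESeq2 and limma-voom did not call it lower. Of its 28-base stretches, 19.1% occur in other genes, mostly in Mthfsl. Thymidylate synthase, Tyms (0.21 ± 0.18), and Mtrr, which reactivates methionine synthase (-0.24 ± 0.15), did not pass. After the correction for coding share and exon length Tyms passed as higher (0.55 ± 0.18, edgeR adjusted p = 0.0469). Mtrr passed as lower with library size only (-0.68 ± 0.15, edgeR adjusted p = 0.0106) and with the replicate block (edgeR adjusted p = 0.0322). Without total RNA replicate 2 the calls of Gart (adjusted p = 0.0879) and Mtr (0.0977) were lost, that of Mtr also without total RNA replicate 1 (0.135), and over the alternatives their adjusted p ran up to 0.0882 and 0.642. Exons of Gm15964 overlap those of Gart on the opposite strand and hold 17.5% of its 28-base stretches.

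Of 10 carriers of folate, serine and glycine, edgeR called 2 higher (20%), near the 20.5% of all tested genes. Lower calls numbered 0 by edgeR, DESeq2 and limma-voom, where edgeR called 21.2% of all tested genes lower. At an unadjusted p under 0.05, 2 were lower, beside 3614 of 13809 tested genes. The median ratio was -0.12. The folate receptor Folr1 had 48.6 ± 5.38 CPM in RPF and 26.2 ± 3.22 CPM in total RNA (SD, n = 2; 0.89 ± 0.17, edgeR adjusted p = 0.00702). The neutral amino acid transporter Slc1a5 had 83.7 ± 8.7 CPM in RPF, against 47.6 ± 0.708 CPM in total RNA (0.82 ± 0.14, edgeR adjusted p = 0.00457). Sfxn1, which carries serine into mitochondria, had 49.2 ± 14.1 CPM in RPF and 68.5 ± 17.3 CPM in total RNA and did not pass (-0.48 ± 0.25, edgeR adjusted p = 0.162). It passed as lower with library size only (-0.92 ± 0.23, edgeR adjusted p = 0.0153) and with the replicate block (-0.48 ± 0.11, edgeR adjusted p = 2.07e-05). Its ratio was -0.79 without RPF replicate 1 and -0.71 without total RNA replicate 2. It was -0.20 without RPF replicate 2 and also without total RNA replicate 1. After the correction for coding share, 9.82% in Sfxn1, it was -0.04 (edgeR adjusted p = 0.918). With exon length as well it was 0.01 (edgeR adjusted p = 0.973).

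In the methionine cycle and transsulfuration edgeR called 4 of 10 tested genes (40%) higher, beside 20.5% of all tested genes. It called 0 lower, beside 21.2% of all tested genes. DESeq2 and limma-voom also called 0 lower, and 0 were lower at an unadjusted p under 0.05. The median ratio was 0.67. Both enzymes of transsulfuration, which joins serine and homocysteine towards cysteine, were among the 4: Cbs had 49.1 ± 1.65 CPM in RPF and 22.8 ± 3.12 CPM in total RNA, and Cth had 103 ± 14.3 CPM in RPF and 50.3 ± 3.72 CPM in total RNA (SD, n = 2). Their ratios were 1.11 ± 0.17 and 1.03 ± 0.15 (edgeR adjusted p = 0.00296 and 0.00277), called under all 15 alternatives. Ahcy, which clears S-adenosylhomocysteine, stood at 1.10 ± 0.24 (edgeR adjusted p = 0.011), with 71.9% of its 28-base stretches in other genes. Mat2b, a regulatory subunit of methionine adenosyltransferase, stood at 0.56 ± 0.14 (edgeR adjusted p = 0.0156). The catalytic Mat2a (0.15 ± 0.19) and the related Ahcyl1 (0.14 ± 0.15) did not pass. Without total RNA replicate 2 Ahcy (adjusted p = 0.0547, at most 0.0595 over the alternatives) and Mat2b (0.166, at most 0.577) did not pass, and Mat2b also failed without total RNA replicate 1 (0.0698).

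**Figure D5:**
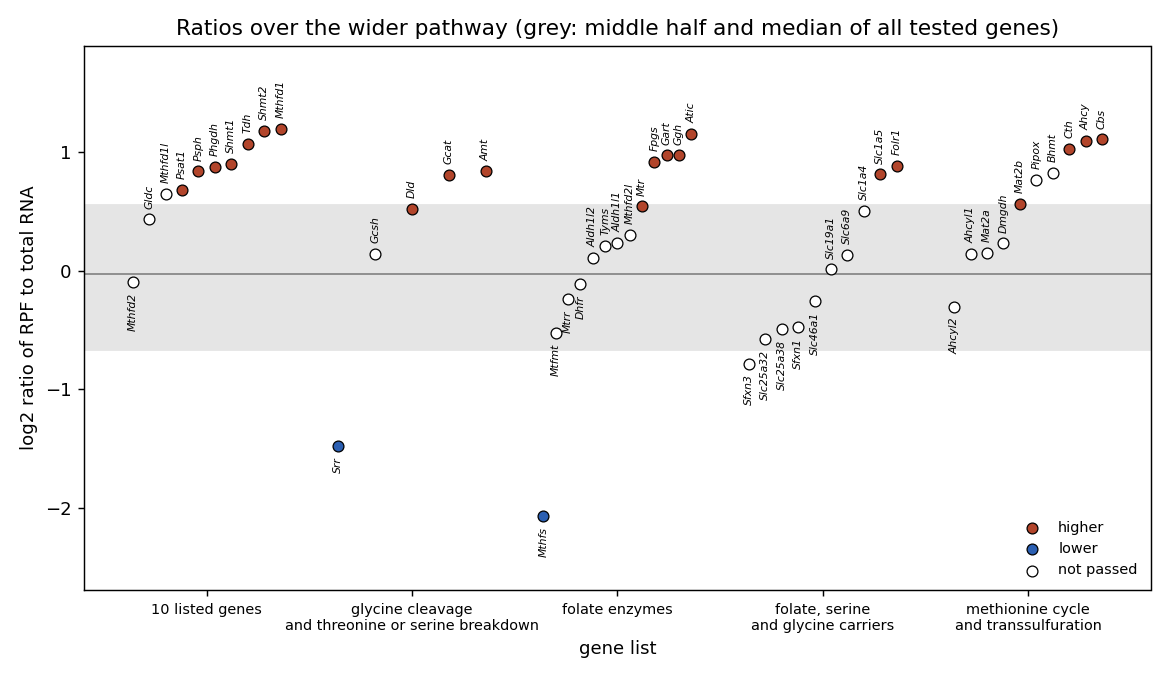
The ratio of RPF to total RNA (log2) of the 10 listed genes and of the tested genes in the 4 wider lists (1 of them not drawn), red where called higher, blue where called lower and white where the test was not passed; grey marks the quartile range and median of all tested genes. The carriers spread around the median of all genes, while Cbs, Ahcy, Cth and Atic lie between 1.03 and 1.15, beside Tdh at 1.07.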

How the data were processed

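The authors deposited raw read counts per gene for 4 libraries, with closing tallies in HTSeq's form. Per the labels, RPF samples were sequenced 4 times and reads were 50 bp long. The submitters' processing notes name HTSeq 0.11.2, TopHat2 2.1.1, Bowtie 1.2.3, edgeR 3.26.8 and build mm9; neither the annotation release nor strandedness is given in the sources used here. Rows naming no gene stayed out of library sizes and tests: reads in no feature were 5.95% and 6.66% of tallied RPF reads and 23.4% and 26.2% of total RNA reads, ambiguous reads 4.96% and 8.58% against 0.755% and 0.719%, and multiply aligned reads 21% and 20.6% against 16.6% and 16.5%.

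Identifiers were named through GENCODE M21 without their version (87.4% matched). Lengths, leaders and start windows came from 1 transcript per gene, the principal one, then the longest coding one; coding share used all annotated exons. No coordinates are given, since the builds differ. RPF and total RNA were compared in edgeR 4.0.16 (R 4.3.3) by a quasi-likelihood fit of fraction alone after filterByExpr (minimum count 10, minimum total 15) and TMM scaling, two-sided, with Benjamini-Hochberg adjustment over 13809 genes and a threshold of 0.05. The SE is the ratio over the square root of F. The fit was tested on simulated data.

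The members and lists were chosen with earlier results of these data known. Named besides the 10 genes were wider-list genes that passed with a mean of at least 10 CPM, or did not pass with at least 50 CPM, and Eif4a3; 1 wider-list gene is counted in the totals but not reported here by name or value. Replicates differed by more than sampling noise, with a chi-square per gene of 23.3 between RPF libraries and 10.7 between total RNA libraries. Alternatives were DESeq2 1.42.0 and its size factors, library size only, no filter, a mean of at least 10 CPM, limma-voom (3.58.1), a replicate block, glmTreat (fold 1.5), loess (span 0.5) corrections for coding share with and without exon length, coding genes only and each library left out; level per kb of all annotated exons was added after seeing the data. Leaving out a library leaves 1 in its fraction, which is then assumed to vary like the other fraction. A count of 0 allows 3 counts, at most 0.437 CPM, for counting error only.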

Additional observations from a re-analysis of the deposited data

How the results depend on the processing

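None of the 10 genes was called lower under any of 15 alternatives, and Shmt2, Mthfd1 and Tdh were called higher under all of them. With library size only, 4 of the 10 were called higher, and 5 wider genes higher and 8 lower; over all genes 1223 were higher and 4961 lower, and the median of all genes was -0.46 beside 0.42 for the 10 (-0.02 and 0.86 with TMM). So 19.8% of calls were higher against 49.2% with TMM. Against a fold of 1.5 (glmTreat), 3 of the 10 and 4 wider genes were higher, 0 wider genes lower, and over all genes 1155 higher and 1549 lower. DESeq2 called 1 wider gene lower. Leaving out 1 library at a time gave 3 to 9 of the 10 higher, 7 to 16 wider genes higher and 1 to 4 lower, and over all genes 1720 to 3341 higher and 1857 to 3440 lower; the low end of the higher counts came without total RNA replicate 2. With replicate number as a block, 9 of the 10 were higher, Mthfd1l (0.62 ± 0.10 SE) and Gldc (0.42 ± 0.10) now among them, with 10 wider genes lower and 4257 genes higher overall against 2835. Same-numbered libraries deviated together (correlation 0.443 across genes), but the labels do not say that a number pairs them, and 2 pairs cannot show it. The causes of these shifts were not tested. Per kb of all annotated exons the total RNA level moved by over 1.5 times for Psph (4.95 in place of 12.4 CPM), Psat1 (34.8 in place of 56.5), Mthfd2 (11.4 in place of 19) and Gldc (10.6 in place of 17.2). Depth did not keep any of the 10 from being tested.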
